A study of Arabidopsis thaliana with 6 samples.

Results

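WSD1 (AT5G37300), AT5G33370 and AT4G28780 are 3 genes linked to the lipid surface of the Arabidopsis thaliana shoot, out of 13355 genes with a named probe set on the arrays. They were chosen by measured values of these arrays: WSD1 because it read higher in plants overexpressing miR172a, and the GDSL-type genes AT5G33370 and AT4G28780 because they read lower there than in plants overexpressing miR164b. The comparisons of miR172a with vector and of miR164b with miR172a therefore selected the genes, and their values in both are given as a description, with no test. The comparison of miR164b with vector was not named in that choice and was tested, although it shares arrays with both others. All 3 genes could be found, each through 1 probe set that the array annotation pairs with exactly 1 gene.

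The cuticle is the water-repellent layer on aerial epidermal cells, made of the polyester cutin with waxes in and on it. WSD1 encodes a wax ester synthase, which joins a fatty alcohol to an activated fatty acid, and it makes the wax esters of Arabidopsis stems. GDSL-type proteins are a large family of esterases and lipases named after a sequence motif around their active serine. In tomato one of them links cutin monomers into the polymer outside the cell. Both GDSL genes described here belong to that family, and their own substrates were not measured here.

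RNA came from the vegetative apex of plants grown for 7 days in short days. The vector group was Columbia transformed with the empty plasmid pML_Bart. The other groups overexpressed miR164b or miR172a in Col-0. Each of the 3 groups had 2 arrays, and the labels give neither the promoter that drives the microRNAs, the number of transgenic lines, nor whether both arrays of 1 group came from different plants. The p-values here therefore speak only to how far arrays of a group spread, which may be technical. In RNA of vegetative apices, fewer epidermal cells and less RNA per cell cannot be told apart.

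Values are linear intensities that the authors scaled, with a trimmed mean of 200.02 on every array. The median lay between 85.2 and 92.0 and the lower quartile between 16 and 21.8. The control for 25S rRNA read 4070 and 4093 with the empty vector, 443 and 529 under miR164b, and 355 and 3462 under miR172a. Actin controls read higher at the 3' end, by a ratio of 2.94 and 3.0 with the empty vector, 1.96 and 2.11 under miR164b, and 2.25 and 3.05 under miR172a. The part of either control in the results below was not tested.

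WSD1 read 22.8 and 16.2 with the empty vector, 9.6 and 14.4 under miR164b, and 291.3 and 363.7 under miR172a. Both miR172a arrays lay far above the other 4, of which 3 were below the lower quartile of their array and vector array 1 was just above it. Detection calls were not used here, so whether WSD1 was expressed at all outside the miR172a group is not known. The mean intensity was 327.5 ± 51.2 in miR172a, 19.5 ± 4.67 in vector and 12 ± 3.39 in miR164b (SD, n = 2). The miR172a mean was thus 16.8 and 27.3 times these dim means, which are not shown to be above background, so the ratios compare intensities and do not fix a fold of transcript. The lower miR172a array was 12.8 times the higher vector array. WSD1 read 291.3 on the miR172a array with a 25S rRNA control of 355, and 363.7 on the one with 3462.

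On the log2(intensity + 16) scale, WSD1 was higher in miR172a than in vector by 3.27 ± 0.16 (SE), the second largest rise among the 13355 named genes. Toward miR172a it had the largest difference between the lines, at log2 -3.61 ± 0.16 for miR164b against miR172a. The size moved with the offset: the difference from vector was 4.01 with an offset of 1 and 2.22 with an offset of 64. Both places were the same with either offset. In the order of the levels miR172a came first, then vector, then miR164b. The arrays of the latter pair did not overlap, but the difference between them did not pass the test given below.

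AT5G33370, a GDSL-type gene, read 215.7 and 213.5 with the empty vector, 336.5 and 315.5 under miR164b, and 114.2 and 120.4 under miR172a. The 3 groups did not overlap, with miR164b on top, vector between and miR172a lowest. The means were 214.6 ± 1.56, 326.0 ± 14.8 and 117.3 ± 4.38 (SD, n = 2). The vector mean was thus 1.83 times that of miR172a, a log2 difference of -0.79 ± 0.08 for miR172a against vector, and the lines differed 2.78 times, a log2 difference of 1.36 ± 0.08 toward miR164b.

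AT4G28780, the other GDSL-type gene, read 321.9 and 346.9 with the empty vector, 461.7 and 473.7 under miR164b, and 79.0 and 123.7 under miR172a. Its groups stood in the same order as those of AT5G33370 and did not overlap. The means were 334.4 ± 17.7, 467.7 ± 8.49 and 101.4 ± 31.6 (SD, n = 2), so the miR172a arrays spread more than the others. AT4G28780 read 79.0 on the miR172a array with a 25S rRNA control of 355, and 123.7 on the one with 3462. AT5G33370 read 114.2 and 120.4 on these arrays. The vector mean was 3.30 times that of miR172a (log2 -1.60 ± 0.18 for miR172a against vector), and the miR164b mean was 4.61 times that of miR172a (log2 2.07 ± 0.18). Among the 13355 named genes AT4G28780 stood at place 7 and AT5G33370 at place 30 by the difference between the lines toward miR164b. With an offset of 1 the places were 14 and 110, and with an offset of 64 they were 6 and 24.

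**Figure D1:**
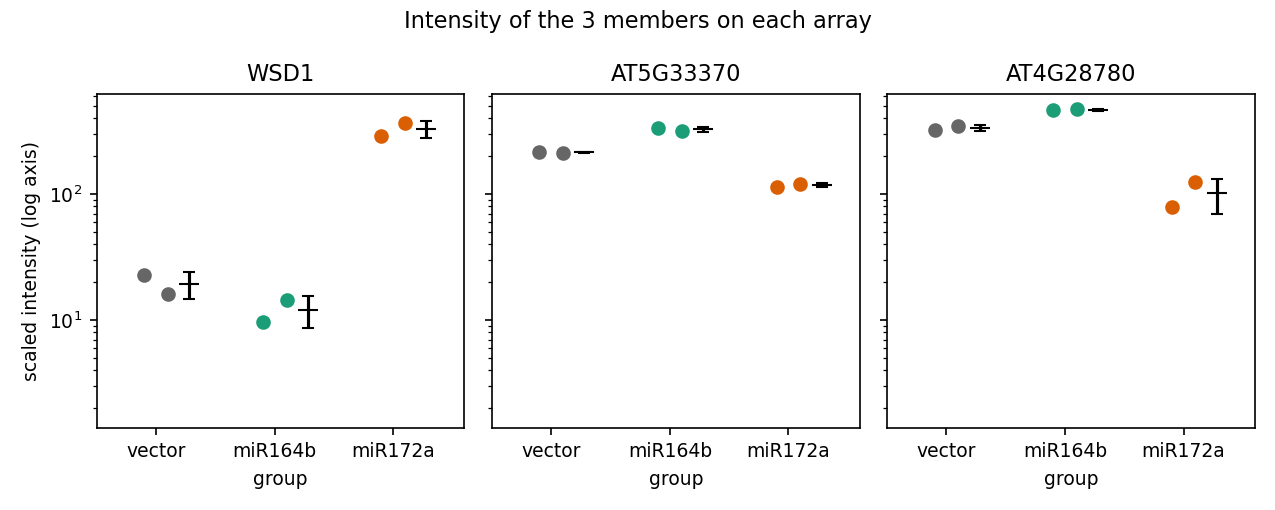
Scaled intensity (log axis) of WSD1, AT5G33370 and AT4G28780 by group; coloured points are single arrays, and the black mark is the mean with its SD over 2 arrays. WSD1 stands at 291.3 and 363.7 in miR172a and at 22.8 or less elsewhere, while both GDSL-type genes are highest in miR164b and lowest in miR172a.

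The 2 GDSL-type genes moved to unequal degrees. Relative to the vector mean of each, AT4G28780 stood at 0.88 and 0.96 of AT5G33370 on the miR164b arrays and at 0.44 and 0.66 on the miR172a arrays. The pair thus departed from vector by a like factor in miR164b, and AT4G28780 departed further in miR172a.

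The comparison of miR164b with vector shows what differs between the arrays of these groups, and here the members could be tested. AT5G33370 rose to 1.52 times its vector level, a log2 difference of 0.57 ± 0.08 (limma, adjusted p = 0.043), and the lower miR164b array was 1.46 times the higher vector array. AT4G28780 stood at 1.40 times its vector level without passing the test, at log2 0.47 ± 0.18 (adjusted p = 0.263, unadjusted p = 0.047). WSD1 stood at log2 -0.34 ± 0.16 and did not pass either (adjusted p = 0.327). So 1 of the 3 genes was called, in a comparison where 1.79% of all 22746 probe sets were. The choice of the members drew on the same vector and miR164b arrays, so these p-values are not free of that choice and nothing is read from the count.

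The AT5G33370 call lay near the threshold and was lost in 9 of 14 other settings, among them the omission of any 1 of the 6 arrays (adjusted p from 0.0890 to 0.253). The estimate itself stayed between log2 0.48 and 0.61. For AT4G28780 the standard error was 0.08 in place of 0.18 when only the vector and miR164b arrays were fitted, a setting added after the data were seen, and the gene was again not called (adjusted p = 0.116).

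**Figure D2:**
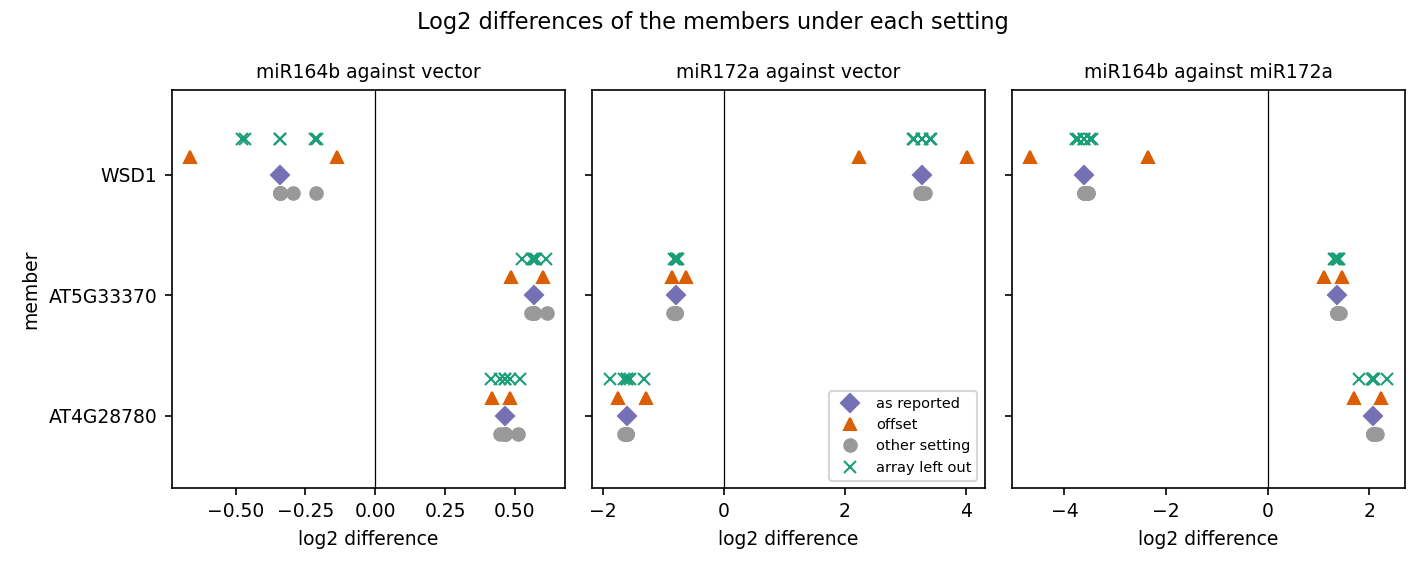
Log2 difference of each member (rows) in the 3 comparisons under every setting; diamonds are the values as reported, triangles other offsets, crosses single arrays left out and circles the other settings. Every estimate keeps its sign, which in the comparisons that chose the members neither another offset nor an omitted array could reverse. The offset moves WSD1 most, between 2.22 and 4.01 for miR172a against vector.

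Other genes of wax and cutin metabolism were taken from 7 lists with 97 genes beside the members. Only 16 of the 97 had a probe set paired with 1 gene, and only such genes are called measured here. No gene of the lists for cutin monomer synthesis, cuticle lipid export or suberin had one, so these steps could not be described. The arrays may still hold probe sets for them, since 8730 probe sets were not listed in the annotation and 503 paired with several genes. Of the 16, 1 passed in miR164b against vector (6.25%, against 1.79% of all probe sets), 4 in miR172a against vector (25%, against 5.87%) and 2 between the lines (12.5%, against 7.14%). The median log2 difference of the 16 was 0.03, -0.08 and 0.16 in that order, and that of all probe sets was -0.05, -0.00 and -0.06. None of the calls against vector remained when any 1 of the 6 arrays was left out, and those between the lines were lost without any of the 4 arrays of the lines.

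Beside WSD1, 4 loci assigned by hand to the wax ester synthase family were measured, an assignment from general knowledge that neither annotation table states. AT3G49190 read 7.5 and 10.1 with the empty vector, 16.8 and 12.9 under miR164b, and 28.2 and 26.1 under miR172a. It rose in miR172a against vector by a log2 of 0.80 (adjusted p = 0.018), from a level below 16. The size moved with the offset, from 0.32 with 64 to 1.53 with 1, where AT3G49190 was not called (adjusted p = 0.051). AT5G12420 read 51.8 and 45.3 with the empty vector, 73.3 and 59.2 under miR164b, and 26.3 and 23.5 under miR172a. It thus had the group order of the GDSL-type members, and it fell in miR172a against vector by 0.66 on the log2 scale (adjusted p = 0.038), a value of -0.34 with an offset of 64 and of -0.93 with 1, where it was not called (adjusted p = 0.070). Set against miR172a, AT5G12420 stood higher in miR164b, with a log2 difference of 1.003 (adjusted p = 0.011), or 0.55 with an offset of 64.

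AT1G72110 and AT3G49210 did not pass in any comparison, with log2 values of 0.32 and -0.28 in miR172a against vector. In miR164b against vector 0 of the 4 family loci passed, too few loci to be set apart from the 1.79% of all probe sets. Of the 4, 2 had an unadjusted p under 0.05 (limma). The family loci therefore did not share 1 direction in miR172a, and none came near the WSD1 difference of 3.27.

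Among regulators, DEWAX (AT5G61590), an ERF-type repressor of wax synthesis genes, read 581.5 and 566.2 with the empty vector, 615.3 and 635.9 under miR164b, and 345.3 and 354.5 under miR172a. Both miR172a arrays lay below all 4 others. DEWAX fell in miR172a by 0.69 on the log2 scale (adjusted p = 0.013), and was higher in miR164b than in miR172a by 0.81 (adjusted p = 0.0068). SHN3 (AT5G25390), an activator of cuticle genes, read between 1.8 and 19.5 on all arrays and passed in no comparison. CER26 (AT4G13840), which acts in the elongation of wax precursors, had means of 460.5 in vector, 548.6 in miR164b and 487.7 in miR172a and passed in none.

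**Figure D3:**
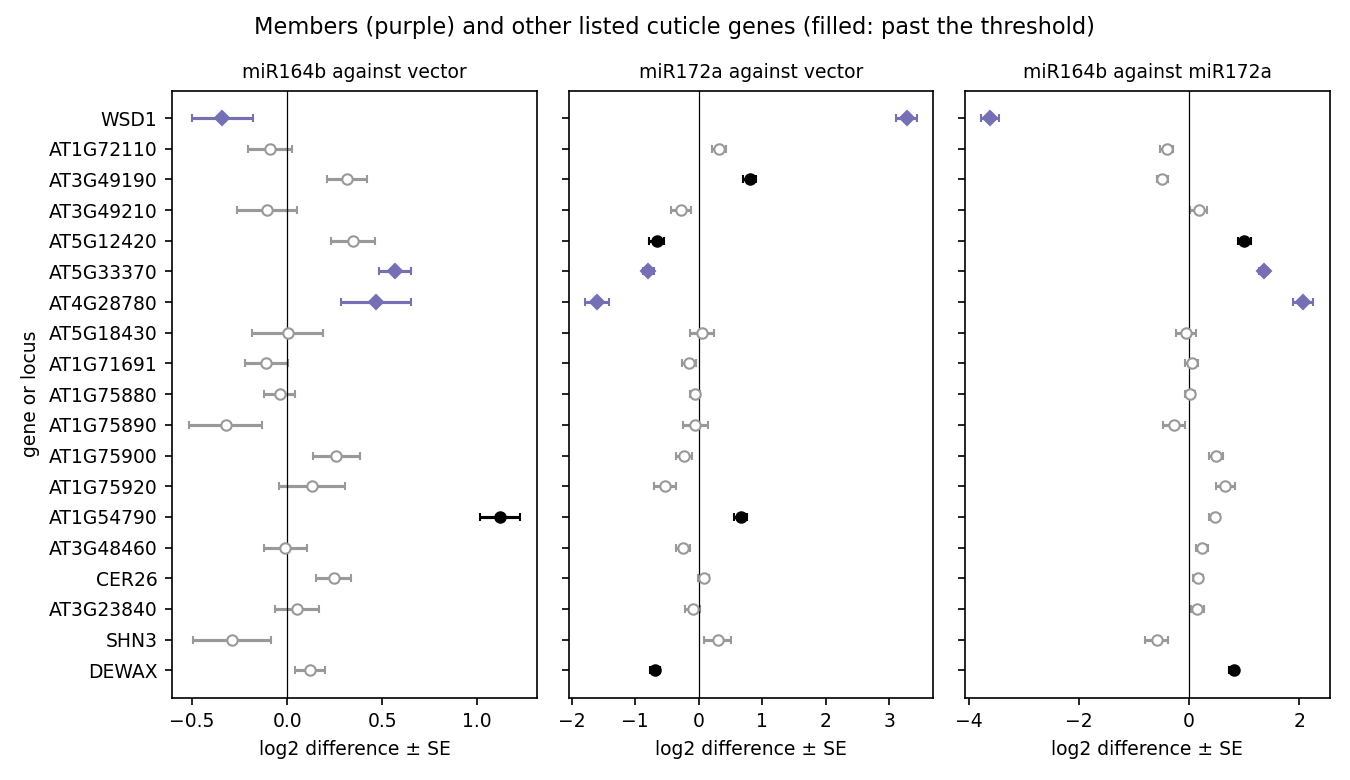
Log2 difference with its standard error for the 3 members (purple diamonds) and the 16 other measured genes of the cuticle lists in the 3 comparisons; filled black points passed the threshold. Of the genes called in miR172a against vector, DEWAX and AT5G12420 lie on the same side as the GDSL-type members. AT3G49190 and the GDSL-type gene AT1G54790 lie on the side of WSD1.

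The GDSL family was described more widely, since the list written first gave 8 measured loci beside the members. The gene table names 9 loci as GDSL lipases, none of which had a probe set paired with 1 gene. In all, 65 further loci were listed by hand from general knowledge after values had been seen, of which 51 were measured, which gave 59 in all. Of the 59, 2 rose and none fell in miR164b against vector (3.39%, against 1.79% of all probe sets), and 6 rose and 1 fell in miR172a against vector (11.9%, against 5.87%). Their median log2 difference was -0.04 in miR164b and 0.05 in miR172a. Between the lines 2 of the 59 passed (3.39%, against 7.14%), but this count and its place beside all probe sets depended on the setting: 7 passed with quantile normalization (11.9%, against 7.31%) and 9 with an offset of 64 (15.3%, against 11.9%).

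The GDSL-type loci that were called in miR172a against vector mostly went the other way from the members, but those just above the threshold did not. With an adjusted p from 0.056 to 0.070 (limma), AT1G28570, AT1G28580, AT2G23540 and AT3G62280 fell in miR172a, and AT1G31550 and AT3G11210 rose. AT2G23540 read below 16 on every array. The split of the called loci is therefore not read as a direction of the family. AT1G56670 read 32.1 and 30.5 with the empty vector, 18.0 and 26.4 under miR164b, and 73.8 and 87.3 under miR172a. It rose in miR172a against vector by a log2 of 1.03 (adjusted p = 0.018) and was lower in miR164b than in miR172a (log2 -1.34, adjusted p = 0.0077). Its miR172a arrays were the highest, as for WSD1. With an offset of 64 the log2 difference from vector was 0.60, and with an offset of 1 it was 1.33 and not called (adjusted p = 0.068). AT4G01130 was the 1 locus that fell in miR172a, from 128.1 and 132.9 to 80.2 and 83.8 (log2 -0.58, adjusted p = 0.020). Its miR164b arrays, at 118.5 and 113.6, lay below vector, unlike those of the members.

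AT1G29660 rose in both lines, from 450.1 and 463.8 in vector to 1015.3 and 946.8 in miR164b (log2 1.08, adjusted p = 0.0079) and to 819.1 and 789.8 in miR172a (log2 0.79, adjusted p = 0.011). AT1G54790, of the first list, also rose in both, from 11.1 and 7.8 to 36.4 and 42.3 in miR164b (log2 1.12, adjusted p = 0.013) and to 25 and 23.3 in miR172a (log2 0.66, adjusted p = 0.029). Its vector arrays lay below the offset, and over offsets of 64 and 1 its log2 difference ran from 0.49 to 1.96 in miR164b and from 0.26 to 1.28 in miR172a, with neither called at 1 (adjusted p = 0.055 and 0.060). AT1G29670, AT1G33811 and AT3G53100 rose in miR172a by log2 0.49, 0.52 and 0.55 (limma, adjusted p = 0.039, 0.049 and 0.034). None of these was called with an offset of 1 or with a replicate block. With median centring AT1G29670 and AT1G33811 were not called, and with quantile normalization AT1G33811 was not. Apart from AT1G54790, all loci of this paragraph were named after their values were seen, and both lines are set against the same vector arrays.

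The calls of AT1G29660 and AT1G56670 against vector were kept without an array of the line not compared and lost without any other single array. The remaining GDSL-type calls against vector were lost without any 1 of the 6 arrays (adjusted p from 0.0502 to 0.179). Between the lines the AT1G56670 call was lost in 3 of 6 omissions (either miR172a array or miR164b array 1), and the AT4G01130 call in 6 of 6. With an offset of 64, 15 of the 59 passed in miR172a against vector (25.4%, against 9.85% of all probe sets), and with an offset of 1, 2 did (3.39%, against 1.78%).

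**Figure D4:**
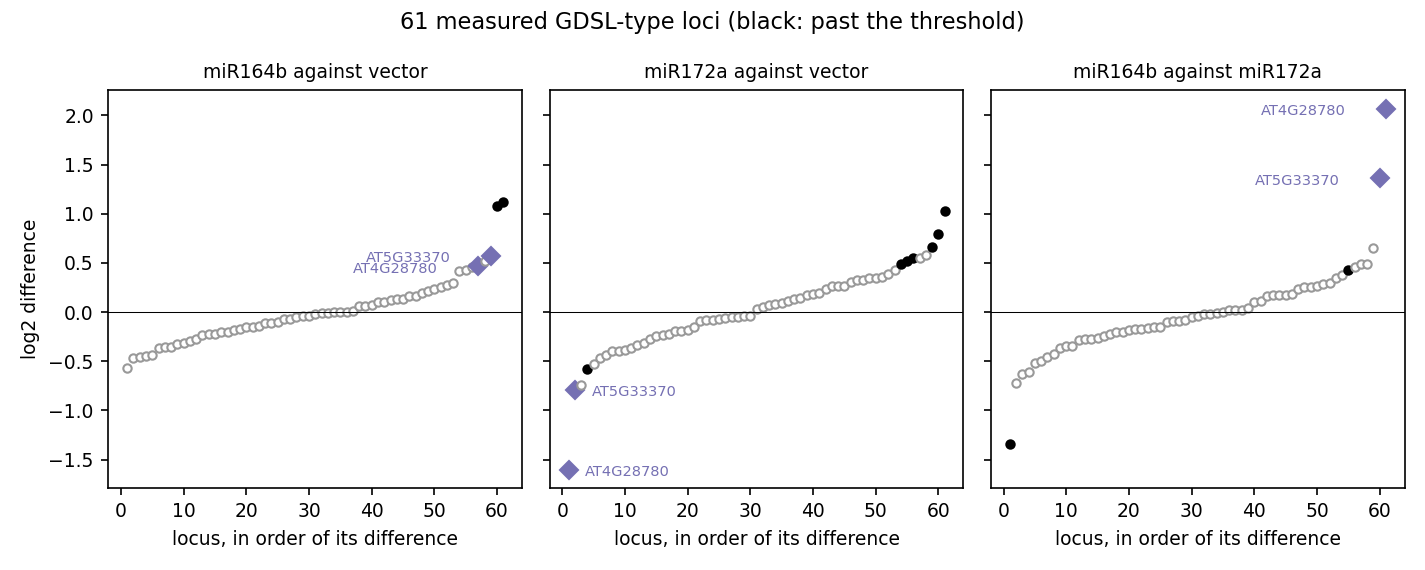
Log2 difference of 61 measured GDSL-type loci in the 3 comparisons, each panel in order of the difference; purple diamonds are AT5G33370 and AT4G28780, black points passed the threshold. With the offset of 16 the members, which were picked for this difference, stand lowest in miR172a against vector and highest in miR164b against miR172a. AT3G62280, at -0.75 in miR172a against vector, lies close to AT5G33370 at -0.79, and the order of dim loci depends on the offset. Of the 7 other called loci, 6 lie above 0 in miR172a against vector.

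The genes whose pattern was most like that of a member were ranked by Pearson's r of log2(intensity + 16) over the 6 arrays, among 220 other genes whose group means spanned at least 1 on that scale. Because the members were chosen for their group differences and all points share the same 6 arrays, r is a measure of likeness only. For WSD1 the nearest were AT3G22550, AT3G21670 (NPF6.4, of a nitrate and peptide transporter family), ATC (AT2G27550, a relative of the floral inhibitor TFL1), AT3G50230 and AT1G24575, with r from 0.995 to 0.998. ATC read 4.6 and 3 with the empty vector, 1.7 and 3.1 under miR164b, and 20.8 and 21 under miR172a. AT3G50230 read 3.2 and 3.1, 1.9 and 2.4, and 23.5 and 23.1 in that order. Under miR172a these dim genes lay little above the lower quartiles of 20 and 17.8. Whether they were expressed in the other groups is not known, so their r rests on weak signal. NPF6.4 read 270.1 and 267.5 with the empty vector, 250.7 and 250.9 under miR164b, and 589 and 628 under miR172a. Its log2 difference of 1.13 in miR172a against vector was far below the 3.27 of WSD1, so the order of arrays was shared and the size was not.

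For AT5G33370 the nearest were AT1G07050, AT3G15720, AT2G30930, AT4G32340 and AT5G40450, with r from 0.987 to 0.995. AT1G07050 read 63.5 and 74.5 with the empty vector, 143.6 and 132.1 under miR164b, and 23.3 and 21.0 under miR172a, a wider range than that of the member. For AT4G28780 they were AT4G16146, AT3G53250 (SAUR57, of a family of small auxin-induced transcripts), AT4G34950, AT5G26280 and AT1G06100, with r from 0.991 to 0.998. SAUR57 read 98.9 and 110.9 with the empty vector, 130.3 and 121.9 under miR164b, and 37.1 and 46.5 under miR172a. The 2 GDSL-type members were not among each other's nearest 5: their r was 0.965, which placed AT4G28780 at 20 of 220 for AT5G33370, and AT5G33370 at 23 of 220 for AT4G28780. WSD1 ran opposite to both, with r of -0.936 and -0.963.

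**Figure D5:**
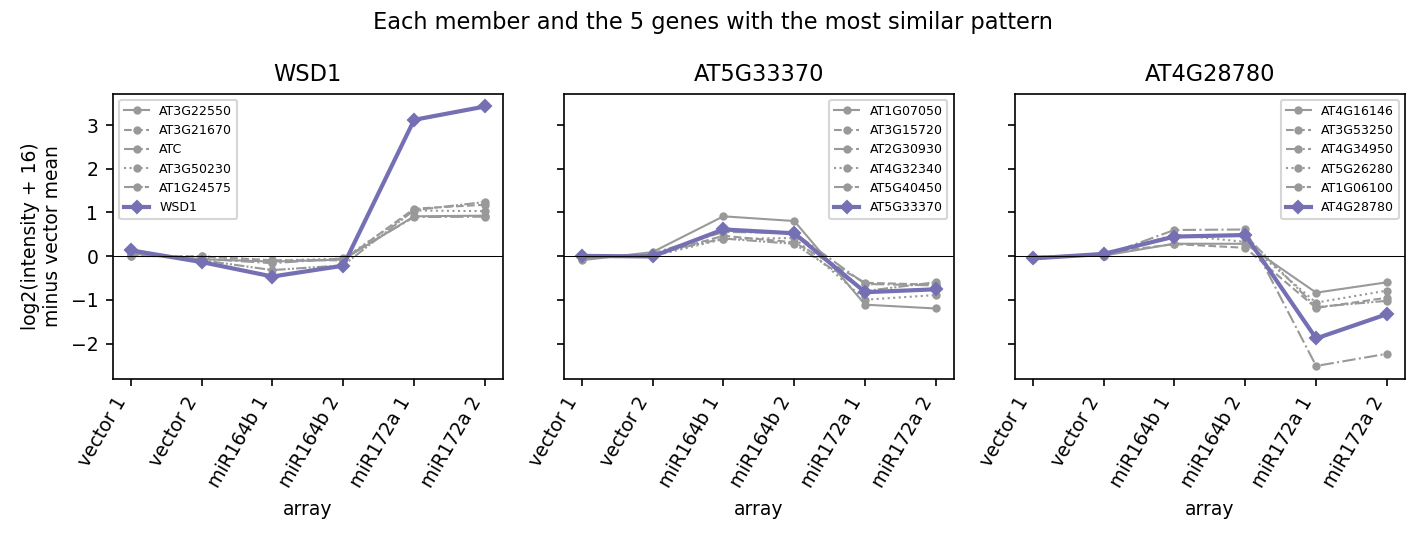
Level on each array as log2(intensity + 16) minus the vector mean, for each member (purple) and the 5 genes with the highest r (grey). The grey lines share the group order of the member. Some of them, such as AT3G21670 in the WSD1 panel, also share the order of the arrays within each group, and others do not. In the WSD1 panel the differences of the grey lines are smaller.

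WSD1 and AT5G33370 lie on chromosome 5 and AT4G28780 on chromosome 4, by the TAIR10.1 gene table, which was used for order and names only. Of the 10 nearest protein-coding loci of each member, 4 were measured for WSD1, 2 for AT5G33370 and 5 for AT4G28780. None of these 11 passed in any of the 3 comparisons by limma, and 2 had an unadjusted p under 0.05 in each. Of all probe sets 1.79% passed in miR164b against vector, 5.87% in miR172a against vector and 7.14% between the lines. With 11 loci measured of 30, the absence of calls cannot be told from these shares. Their log2 differences lay between -0.48 and 0.45. The loci directly beside WSD1 read 112.9 and 136.4 (AT5G37290) and 222.6 and 233.0 (AT5G37310) as means in vector and miR172a.

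Few of the cell type markers had a named probe set. For the epidermis, 1 of 7 did: ACR4, a receptor kinase of the outer cell layer, read 174.1 and 144.2 with the empty vector, 110.0 and 130.8 under miR164b, and 160.4 and 151.6 under miR172a. Its miR164b arrays lay below the other 4. ACR4 passed in no comparison (adjusted p from 0.180 to 0.952), with an unadjusted p of 0.031 in miR164b against vector (log2 -0.36) and 0.038 between the lines (log2 -0.34). For the guard cell lineage and trichomes, 3 of 7 were measured, FAMA, SPCH and MUTE of the guard cell lineage, and no trichome marker was. The sum of their intensities, mostly SPCH, was 173.4 to 180.6 with the empty vector, 213.2 to 218.4 under miR164b and 167.7 to 191.8 under miR172a. None of the 3 passed by limma. SPCH had an unadjusted p under 0.05 in miR164b against vector (log2 0.32) and between the lines (log2 0.36). MUTE had one in miR172a against vector (log2 0.58), from 2.7 and 8.3 to 19.3 and 12.9. Of the shoot meristem markers, CLV3, which encodes the stem cell peptide signal, read 42.5 to 59.7, 64.6 to 82.4 and 44.9 to 50.9 in vector, miR164b and miR172a. FD, a partner of the floral signal protein, was higher in miR172a than in miR164b (log2 -0.67 for miR164b against miR172a, adjusted p = 0.024). Of the 6 root markers 2 were measured: EXPA7 read 33.1 on vector array 1 and 4.0 to 5.2 on the other 5 arrays, and EXPA18 read 25.3 on vector array 1 and 23.3 to 35.4 on the others. No mesophyll or vascular marker had a named probe set, and the part of cell composition in the members' differences was not tested.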

How the data were processed

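The authors deposited 1 linear intensity per probe set and array of 22810 probe sets, per the file headers with no unit or software named, and the summary method is not given in the sources used here. From these, 64 control probe sets were left out and log2(intensity + 16) was taken, which shrinks differences of dim probe sets. Of the 22746 tested, 13513 paired with 1 gene, 503 with several and 8730 were not listed. The brightest probe set stood for a gene. All probe sets were fitted at once, with a separate mean for each group, in limma 3.58.1 in R 4.3.3 (3 residual and 2.69 prior degrees of freedom), two-sided, with Benjamini-Hochberg adjustment over a comparison and a threshold of 0.05. The fit was tested on simulated data. Figures used Python 3.11.15 and matplotlib 3.10.9.

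Members and lists were chosen with earlier results of these data known. Named genes were the members, called genes of the wax ester synthase and GDSL lists, up to 4 called genes of each other cuticle list and the 5 most similar genes per member; others were named after their values were seen. Groups came from the sample descriptions and replicate numbers from the letter ending each title. Alternatives were offsets of 1 and 64, median centring, quantile normalization, removal of the 40% dimmest probe sets, limma with trend and robust options, a replicate block and each array left out. Detection calls were not used here.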

Additional observations from a re-analysis of the deposited data

How the results depend on the processing

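Of 25 log2 differences recomputed under up to 14 settings, none changed sign, and 12 further results are counts. Those of other genes than the members were recomputed because they had passed the threshold, so nothing is read from their kept signs. The members' own differences in the comparisons that chose them kept their sign in 13 of 13 settings, with ranges of 2.22 to 4.01 for WSD1, -0.87 to -0.62 for AT5G33370 and -1.88 to -1.28 for AT4G28780 (miR172a against vector). The AT5G33370 difference in miR164b against vector was not called with an offset of 1 (log2 0.60), with the replicate block (0.57), with the vector and miR164b arrays alone (0.57) or with any single array left out (0.52 to 0.61); the last 2 rest on fewer arrays, and for the others the cause was not tested.

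In miR164b against vector 407 probe sets passed, but 103 with an offset of 1, 916 with 64, 1148 without the dimmest 40%, 1033 with trend and robust options, 186 with the replicate block, and 9 to 144 with an array left out. For miR172a against vector the count was 1336, and 406, 2241, 2419, 2269, 795 and 111 to 359 in that order. Between the lines it was 1623, and 683, 2707, 2979 and 2781 under the first 4, and 102 to 1018 with an array left out.

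Of the 16 cuticle list genes, 1 passed in miR164b against vector by limma (6.25%, against 1.79% of all probe sets). The count was 0 of 16 with an offset of 1 (against 0.453%), where 3 had an unadjusted p under 0.05. The count was 0 of 6 without the dimmest 40% (against 8.41%), where 1 had. It was 0 with any array left out (unadjusted 2 to 4). In miR172a against vector 4 of 16 passed (25%, against 5.87% of all probe sets). It was 1 of 16 with an offset of 1 (against 1.78%) and 1 of 6 without the dimmest 40% (against 17.7%). Between the lines 2 of 16 passed (12.5%, against 7.14% of all probe sets). It was 4 with median centring (against 7.22%) and 5 with quantile normalization (against 7.31%).

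Of the GDSL-type loci, 7 of 59 passed in miR172a against vector, 3 of 59 with the replicate block (5.08%, against 3.5% of all probe sets), 13 of 30 without the dimmest 40% (43.3%, against 17.7%) and 15 of 59 with trend and robust options (25.4%, against 9.98%). Between the lines 2 of 59 passed (3.39%, against 7.14%), 1 with an offset of 1 (1.69%, against 3%) and 4 with median centring (6.78%, against 7.22%). It was 9 of 30 without the dimmest 40% (30%, against 21.8%) and 10 with trend and robust options (16.9%, against 12.2%). Between 1 and 5 of the 5 genes most like a member stayed among the nearest. The letters in the titles do not say that arrays were paired, and deviations of same-numbered arrays correlated at -0.01, 0.10 and 0.08. Of the members, the block changed only the AT5G33370 call. WSD1 is limited by its dim signal outside miR172a.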
